A study of Mus musculus with 82 samples.

Results

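The genes followed here encode the granule proteins and alarmins of neutrophil granulocytes and their precursors: Mpo, Elane, Prtn3, Ctsg, Ms4a3, S100a8, S100a9, Ltf and Camp. They were taken by gene symbol, as a set chosen with earlier results of these data known, and each of the 9 symbols matched 1 of the 55376 gene rows in the count files. In GENCODE (mm10) Prtn3 (chr10:79874476-79883174) and Elane (chr10:79886247-79888215) are neighbours, as are S100a8 (chr3:90668978-90670035) and S100a9 (chr3:90692632-90695721). Mpo lies at chr11:87793581-87804413, Ctsg at chr14:56099881-56102574, Ms4a3 at chr19:11629496-11640851, Ltf at chr9:111019271-111042767 and Camp at chr9:109847379-109849617. The series profiles hematopoietic stem cells (HSCs) of young and old male C57BL/6J mice by RNA-seq, ATAC-seq and histone ChIP-seq, and asks what chromatin and expression changes accompany HSC aging. Young mice were 3 to 4 months old and old mice 24 to 26 months old. Freshly sorted bone marrow HSCs (Lineage- Sca1+ cKit+ CD34- Flk2- CD150+) gave 4 young (YHSC) and 8 old (OHSC) RNA-seq libraries. YHSC libraries came from pooled mice and OHSC libraries from single mice. In a second set, OHSCs received a lentiviral scramble shRNA (shControl) or 1 of 2 shRNAs, Btaf1-shRNA1 and Btaf1-shRNA2, directed at the 3' end of a short Btaf1 transcript (Btaf1 encodes a remodeler of the TATA-box binding protein). They were sequenced either after 3.5 days of culture or as donor HSCs (Lineage- Sca1+ cKit+ CD48- CD150+ CD45.2+ GFP+) more than 4 months after transplantation, with 2 libraries for each shRNA in each setting. The transplanted libraries pooled 2 to 4 lethally irradiated young female CD45.1 recipients, which had also received CD45.1 myeloid progenitors. Common myeloid progenitors (CMP), granulocyte-macrophage progenitors (GMP) and megakaryocyte-erythroid progenitors (MEP) of young mice had 2 RNA-seq libraries each.

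Neutrophil granules are filled in sequence. Azurophil (primary) granules form at the promyelocyte stage and hold myeloperoxidase (Mpo) and the serine proteases neutrophil elastase (Elane), proteinase 3 (Prtn3) and cathepsin G (Ctsg), while Ms4a3 is a membrane protein gene used to mark granulocyte-monocyte progenitors. Specific (secondary) granules come later, with lactoferrin (Ltf) and the cathelicidin precursor (Camp), and S100a8 and S100a9 encode the paired calcium-binding alarmins of the neutrophil cytosol that signal through Tlr4 and Ager. HSCs themselves carry no granules, and the lineage antibodies of the sort, which include Mac1 and Gr1, are meant to remove mature granulocytes.

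RNA-seq depth was 20.5 to 24.7 M assigned reads in fresh HSCs, and 37.3 to 42.7, 37.6 to 42.1 and 33.2 to 36.5 M in cultured HSCs, transplanted HSCs and progenitors. ATAC-seq libraries held 15.4 to 26.3 M counts in regions. Levels are counts scaled to library size (CPM), or CPM per kilobase of exon (RPKM) where 2 genes are compared. Fold changes are fitted after TMM scaling and so differ slightly from ratios of CPM. All 8 long-term HSC markers examined (Slamf1, Procr, Fgd5, Hlf, Mecom, Mllt3, Hoxb5 and Ctnnal1) had reads in each HSC library, with summed levels of 1693 to 1970 CPM in fresh, 1142 to 1440 CPM in transplanted and 705.5 to 727.9 CPM in cultured HSCs, against 23.3 to 103.9 CPM in progenitors. A gene is called changed at a fold change above 1.5 and a Benjamini-Hochberg adjusted p below 0.05 over all genes tested by edgeR's quasi-likelihood test. Where nothing says that libraries came from separate animals or cultures, p-values measure the spread between these libraries only. Gene-level Btaf1 counts do not separate its transcripts, so they check the knockdown only in part. Btaf1 stood at 137.0 and 141.1 CPM in cultured shControl and at 110.0 to 119.2 CPM in the 4 cultured shRNA libraries, and at 160.6 and 165.5 CPM against 117.8 to 139.2 CPM after transplantation. Fresh HSC libraries YHSC 3, YHSC 4 and OHSC 2 stood apart from the others of their age by late neutrophil genes, and RNA calls with age are given with and without them.

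**Figure D1:**
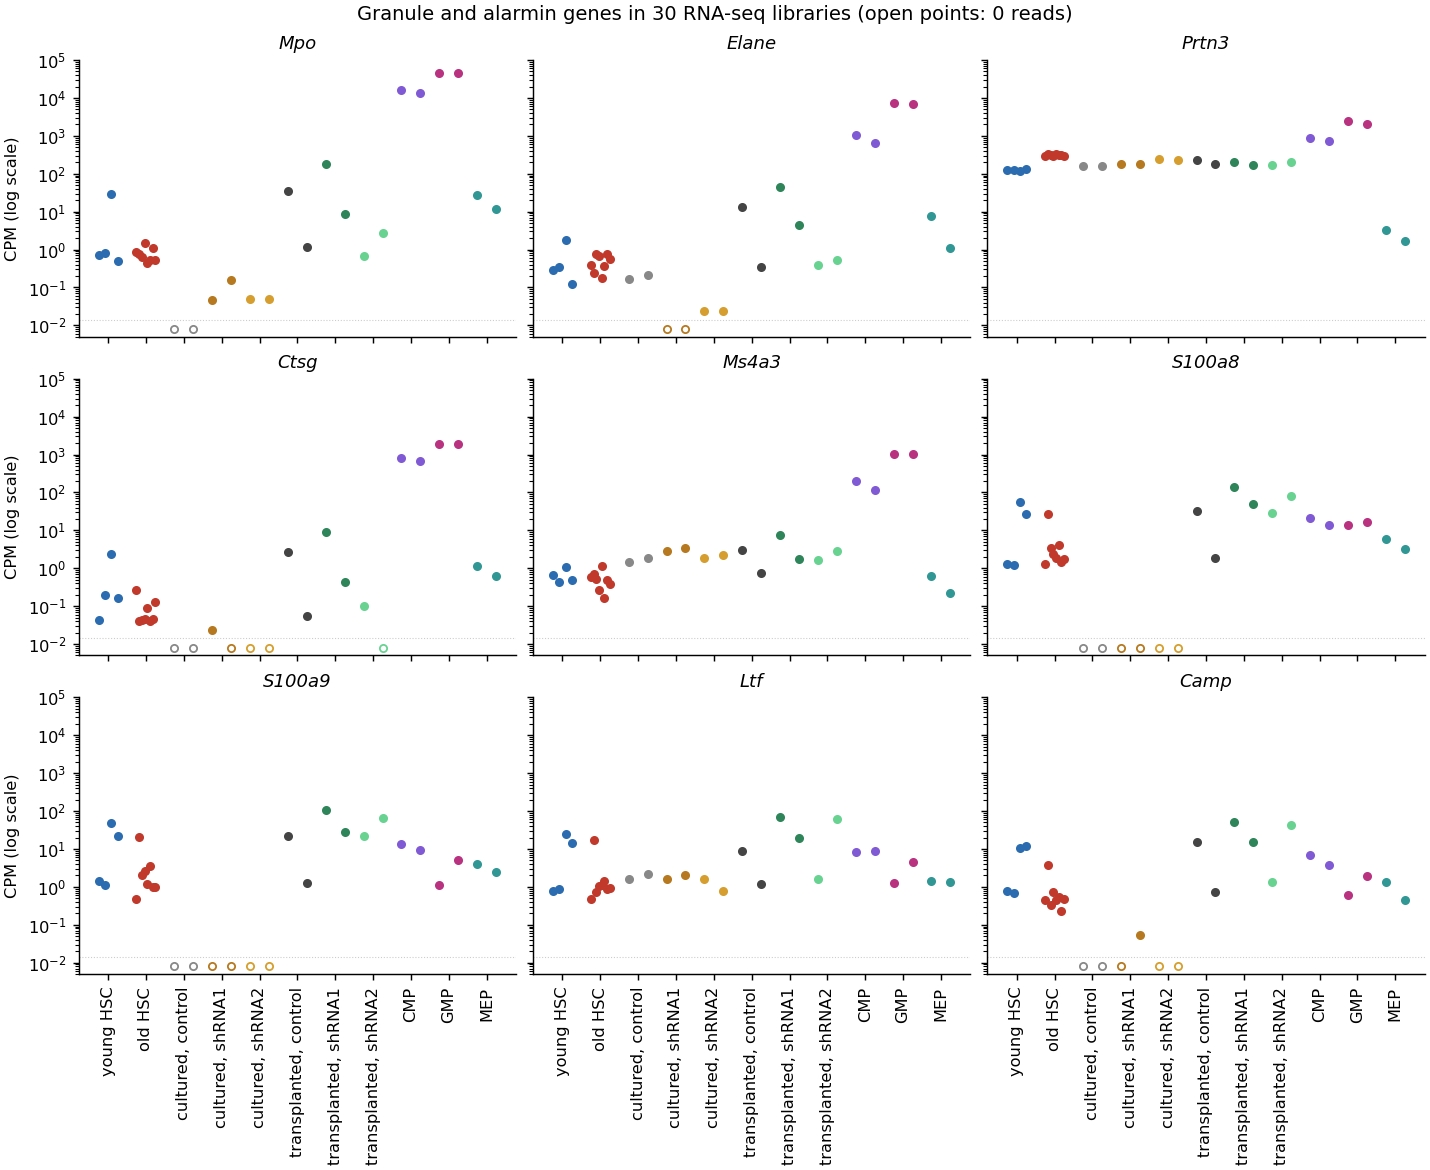
CPM on a log scale (y axis) of the 9 genes in each of the 30 RNA-seq libraries, grouped by sample type (x axis). Each point is 1 library and open points below the dotted line have 0 reads. Prtn3 lies between 120.4 and 335.5 CPM in all fresh, cultured and transplanted HSC libraries, whereas the other 8 genes differ far more between libraries.

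Prtn3, whose protease is stored beside elastase in azurophil granules, was the only member with abundant RNA in every HSC library. Its group means ran from 2.44 CPM in MEP through 127.4 in YHSCs, 159.0 in cultured shControl, 185.3 in cultured shRNA1, 186.5, 187.7 and 205.8 in transplanted shRNA1, shRNA2 and shControl, 235.9 in cultured shRNA2 and 308.8 in OHSCs to 806.8 in CMP and 2272 in GMP. In that order the ranges of neighbouring groups overlapped only from cultured shRNA1 up to transplanted shControl. Fresh and transplanted HSCs had different library kits and sequencers in the study's methods, so kit, sequencer and group cannot be told apart in this order across experiments.

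Prtn3 rose with age. The YHSC libraries held 124.5, 128.4, 120.4 and 136.3 CPM, and the 8 OHSC libraries ran from 289.9 over a median of 307.8 to 335.5 CPM. The ages did not overlap, with means of 127.4 ± 6.8 and 308.8 ± 17.2 CPM (SD, n = 4 and 8). The fold change was 2.49 (log2 1.32 ± 0.05 SE, adjusted p = 2.8e-15), which placed Prtn3 at rank 366 of 21522 genes by log2 fold change. Of the 8 members that passed the filter on low counts, 2 were called, Prtn3 higher and Mpo lower, against 7.52% of all genes tested (4.69% higher and 2.83% lower), or 5.5% without YHSC 3, YHSC 4 and OHSC 2. Prtn3 was called under all 22 alternatives tried, with log2 values from 1.28 to 1.36, and without those 3 libraries it was the only member called (log2 1.33).

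**Figure D2:**
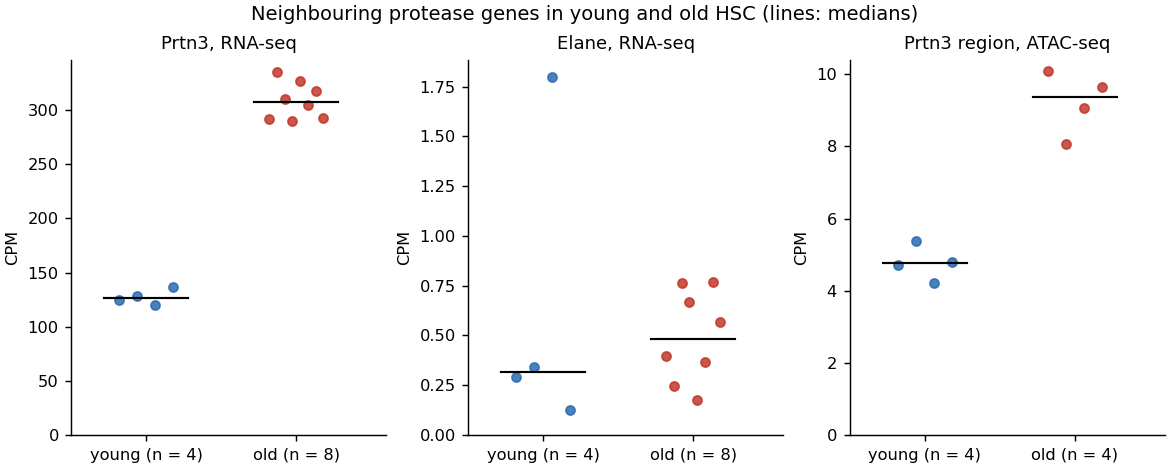
CPM (y axes, linear from 0) of Prtn3 RNA, Elane RNA and the accessible region inside Prtn3 in young and old HSCs. Points are libraries and lines are medians. Old and young libraries do not overlap for Prtn3 RNA (289.9 to 335.5 against 120.4 to 136.3 CPM) or its region, and they do overlap for Elane.

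Elane, the gene for neutrophil elastase, starts 6645 bases downstream of the Prtn3 start on the same strand and was nearly silent in the same libraries. It stood at 0.293, 0.342, 1.8 and 0.124 CPM in YHSCs and from 0.177 over a median of 0.483 to 0.767 CPM in OHSCs, with the ages overlapping. Its log2 fold change was -0.32 ± 0.54 (adjusted p = 0.764), and 0.79 (adjusted p = 0.562) without YHSC 3, YHSC 4 and OHSC 2. On the RPKM scale the Prtn3 level was 38.1 to 622.9 times that of Elane in YHSCs and 231.6 to 1050 times in OHSCs. In CMP it was 0.491 to 0.624 times and in GMP 0.177 to 0.192 times the Elane level. Thus the order of the neighbours was opposite in HSCs and in GMP. In transplanted HSCs the ratio ranged from 2.61 to 298.2, the low values falling in the libraries where Elane was high.

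The promoters of Prtn3 and Elane carry 3 of the short motifs searched in the same order, and their windows are shown because these neighbours differ so widely in HSCs. In the RefSeq promoters (GRCm38, which is mm10; 250 bases before to 50 after the start) a TATAA box on the gene's strand began 32 bases before the start in Prtn3 and 31 bases before it in Elane. An AACGG (Myb core) began 55 and 50 bases before the start, and a GAGGAA (PU.1 core) 95 and 85 bases before it. The windows below show these motifs in capitals, from chr10:79879560-79879589 and chr10:79879611-79879640 for Prtn3 and chr10:79886215-79886244 and chr10:79886259-79886288 for Elane, all on the plus strand.
Prtn3 GAGGAA window: ccaaactggaagGAGGAAgtgggacccaca
Elane GAGGAA window: tcgtgtcccaggGAGGAAgtagggctgtgg
Prtn3 AACGG and TATAA window: cAACGGctcccggcagagctgggcTATAAg
Elane AACGG and TATAA window: tacAACGGcctctggttccagcTATAAgta
S100a8 was the only other member with TATAA on the gene's strand beginning 20 to 40 bases before the start, in a window at chr3:90669029-90669058.
S100a8 TATAA window: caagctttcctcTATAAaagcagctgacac
Such a box stood at that distance in 3.52% of 32851 promoters of this length. Searched on both strands, GAGGAA was in 7 of 9 member promoters (all but S100a9 and Camp) against 28.3% of all promoters, AACGG in 2 (Elane and Prtn3) against 17.4%, TTGCNNAA (C/EBP) in 3 (Ms4a3, S100a9 and Ltf) against 10.8%, and TGTGGT (Runx) in 3 (Ctsg, S100a9 and Ltf) against 16.8%. These letters are described only, and binding was not measured.

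Accessibility rose with age inside Prtn3. No accessible region, H3K27ac peak or H3K4me3 peak of HSCs covered the RefSeq start at chr10 position 79879667. The region chr10:79880710-79881207, with its middle 1291 bases downstream of that start and holding the starts of 3 annotated transcripts, held 4.71, 5.38, 4.22 and 4.8 CPM in YHSCs and 10.1, 8.06, 9.07 and 9.66 CPM in OHSCs. Young and old libraries did not overlap, and the fold change was 1.92 (log2 0.94 ± 0.13 SE, edgeR adjusted p = 2.25e-08). It was the only one called of the 10 tested regions lying in a member gene or within 10 kb before its start (fold change above 1.5, adjusted p below 0.01), where 13% of all 89245 regions tested were called and 10.1% were higher. Its log2 value stayed between 0.88 and 1.01 under all alternatives, and it fell short only of a fold change of 2.

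Accessibility changes around it were smaller. The region chr10:79884349-79884853, between Prtn3 and Elane, stood at 3.94 ± 0.696 CPM (SD, n = 4) in YHSCs and 5.7 ± 0.882 CPM (SD, n = 4) in OHSCs (1.43-fold, adjusted p = 0.00614), just below the fold threshold, and it was called when YHSC ATAC-seq library 4 or OHSC library 7 was left out. The most open region, chr10:79877224-79878421, upstream of the RefSeq start, had means of 26.1 ± 1.99 CPM young and 28.9 ± 1.3 CPM old (SD, n = 4) and a log2 value of 0.13 ± 0.07 (adjusted p = 0.12) and was not called. GAGGAA occurred on the minus strand at 2 places in the middle 300 bases of the called region (36.9% of tested regions hold it there). The windows show its reverse complement in capitals, on the plus strand of mm10, as the only motif of the 5 searched that occurs in those 300 bases. The rest of the region was not searched.
chr10:79880842-79880871 window: gtcagggtagagTTCCTCctacctgcctag
chr10:79880912-79880941 window: gccccacctggaTTCCTCccagagggcgtg

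**Figure D3:**
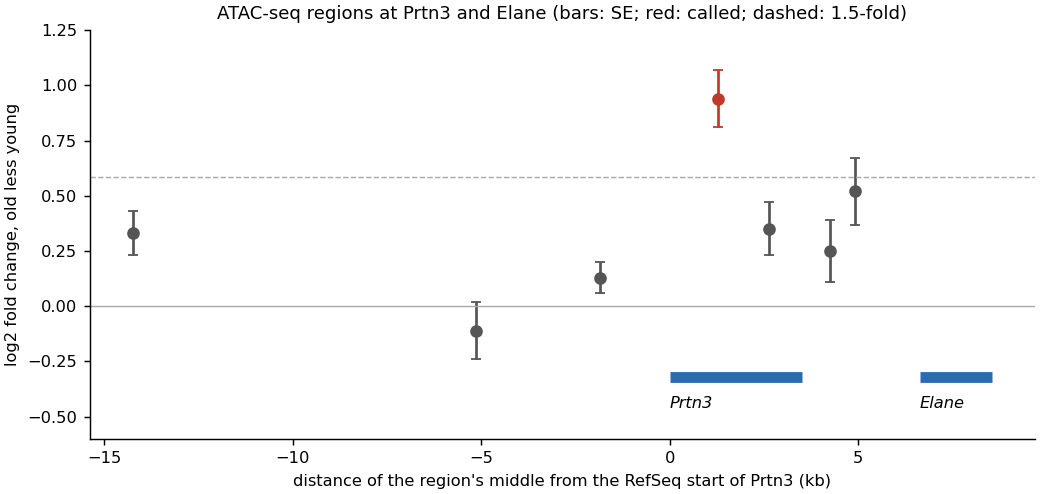
Log2 fold change of accessibility, old less young (y axis), for each tested region around Prtn3 and Elane, against the distance of its middle from the RefSeq start of Prtn3 in kb (x axis). Points are fitted values with SE, the dashed line is a fold change of 1.5 and blue bars are the genes from RefSeq start to end. Only the region 1.29 kb inside Prtn3 (log2 0.94) passes both thresholds.

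Histone marks were read from the deposited peak signals, 2 libraries per age for H3K27ac (active enhancers and promoters) and 2 young libraries for H3K4me3 (active promoters) and H3K27me3 (Polycomb-repressed chromatin). H3K4me3 lay over the called region in a peak at chr10:79880746-79882968 with signals of 16.5 and 17.1, above 75.5% of H3K4me3 peaks. H3K27ac within the annotated gene was in 2 peaks that the deposited table assigns to other names. The upstream peak chr10:79877249-79877938, chosen after its values were seen, gave 5.19 and 5.3 in YHSCs and 3.08 and 3.94 in OHSCs, without overlap. Its limma log2 difference was -0.53 ± 0.15 (adjusted p = 0.0489), but its ratio of means (1.49) fell just short of the 1.5 of the study's rule, so H3K27ac was called lower there by limma and not by that rule. The limma call was lost in 5 of 8 alternatives, which included the leaving out of either OHSC library (adjusted p from 0.00902 to 0.667). The peak at the far 5' end, chr10:79874004-79875024, did not pass (4.73 and 3.57 against 4.03 and 4.68, adjusted p = 0.869). No H3K27me3 peak overlapped Prtn3 or Elane.

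Of 16 annotated genes within 50 kb of Prtn3, itself included, 11 were tested and 4 called with age, where 7.52% of all genes were. Beside Prtn3 these were Plppr3 (log2 0.75 ± 0.05, adjusted p = 5.06e-11), Kiss1r (1.17 ± 0.14, adjusted p = 1.05e-06) and Arid3a (-0.67 ± 0.06, adjusted p = 6.76e-09), named because they are the called neighbours. Plppr3 overlaps the first bases of the annotated Prtn3 gene on the opposite strand, and the sources do not state that counting used strand, so reads in that overlap cannot be told apart. Plppr3 rose from 183.0 to 299.1 CPM. All 3 were also called without YHSC 3, YHSC 4 and OHSC 2 (log2 0.75, 1.29 and -0.61).

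The remaining azurophil granule genes were at trace levels in fresh HSCs. Mpo stood at 0.711, 0.83, 29.1 and 0.497 CPM in YHSCs and from 0.443 over a median of 0.707 to 1.52 CPM in OHSCs. YHSC 3 alone was high, and the other young libraries lay within the old range. Mpo was called lower in OHSCs (log2 -3.25 ± 1.02, adjusted p = 0.047), and without YHSC 3 the log2 value was 0.26 (adjusted p = 0.772), so the call rested on that library. The call was also lost on leaving out any 1 OHSC library, with adjusted p from 0.0589 to 0.083, and without the filter on low counts (adjusted p = 0.106), and DESeq2 gave no adjusted p for Mpo. Ctsg was too low to be tested, at 0.0418, 0.195, 2.35 and 0.166 CPM in YHSCs and 0.0406 to 0.265 CPM in OHSCs, with its highest value again in YHSC 3. Without the filter on low counts it was called lower in OHSCs (log2 -2.85, edgeR adjusted p = 1.47e-05), and without YHSC 3, YHSC 4 and OHSC 2 as well it was not (-0.20, 0.974). Ms4a3 stood at 0.669, 0.44, 1.06 and 0.497 CPM in YHSCs and from 0.162 over a median of 0.502 to 1.15 CPM in OHSCs (log2 -0.29 ± 0.43, adjusted p = 0.724, and -0.09 without YHSC 3, YHSC 4 and OHSC 2), with the ages overlapping. The annotated Mpo gene overlaps Gm11505, an antisense gene, with the same limit on strand.

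The alarmin and secondary granule genes were high in the same few libraries of both ages. S100a8 stood at 1.3, 1.22, 57.1 and 27.5 CPM in YHSCs and from 1.33 over a median of 2.11 to 26.6 CPM in OHSCs. S100a9, its partner, followed with 1.46, 1.12, 48.2 and 22.6 CPM and a range from 0.486 over 1.61 to 21.2 CPM. In both genes YHSC 3, YHSC 4 and OHSC 2 were the high libraries, and the other OHSC libraries did not exceed 4.18 CPM of S100a8. Lactoferrin (Ltf) had 0.795, 0.879, 25.6 and 14.6 CPM in YHSCs and 0.486 over a median of 1.02 to 16.9 CPM in OHSCs. Camp had 0.795, 0.684, 10.8 and 11.9 CPM, and 0.225 over 0.462 to 3.85 CPM. The same 3 libraries were again the highest for both genes.

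None of the 4 was called with age. Their log2 values were -1.96 ± 1.08 for S100a8 (adjusted p = 0.271), -2.09 ± 1.10 for S100a9 (0.246), -1.77 ± 1.13 for Ltf (0.352) and -2.73 ± 0.91 for Camp (0.06), and DESeq2 called Camp lower. Without OHSC 2 all 4 were called lower, and without YHSC 3, YHSC 4 and OHSC 2 none was. In that last fit the direction turned for S100a8 (log2 0.96, adjusted p = 0.176), S100a9 (0.44, 0.764) and Ltf (0.24, 0.83), and Camp stood at -0.65 (0.549). These 3 libraries were picked because such genes were high in them, and the fit kept only YHSC 1 and YHSC 2 as young libraries. The loss of the lower calls was thus largely set by the choice and is no test of it. Of 20 other secondary granule and late neutrophil genes, 6 were higher in each of these 3 libraries than in the other 9. They were Ngp, Lcn2, Chil3, Hp, Cd177 and Wfdc21, and none of 12 other primary granule genes was so. The libraries had been picked by genes of this kind, and the share of all genes highest in them was not counted. Ngp, a secondary granule protein gene, was at 45.9, 28.2 and 24.7 CPM in YHSC 3, YHSC 4 and OHSC 2 and at 0.418 to 1.57 CPM in the other 9, Lcn2 at 10.6, 5.35 and 5.37 against 0 to 0.592 CPM, and Chil3 at 22.6, 9.53 and 1.93 against 0.0418 to 0.626 CPM. The 20 genes summed to 648.0 to 758.0 CPM in YHSCs and 678.0 to 760.7 CPM in OHSCs, with at most 4 of them at 0 in a library, and these sums did not set the 3 libraries apart (OHSC 3 had 754.7 and YHSC 4 689.4 CPM). Plasma cell markers differed among the same libraries, since Jchain was at 244.6 CPM in YHSC 4, 31 in OHSC 2 and 0.783 in YHSC 3. B cell markers differed with age, 6 of 7 being called lower in OHSCs (median log2 -2.22), with sums of 120.9 to 250.3 CPM in YHSCs and 34.6 to 48.5 CPM in OHSCs other than OHSC 7, which lay within the young range, and the greatest young sums were those of YHSC 3 and YHSC 4. Of 8 erythroid markers 4 were called lower and 2 higher, with sums of 185.8 to 253.2 and 49.2 to 211.6 CPM. Without the 3 libraries 4 B cell and 3 erythroid markers were called, all lower. The part of other cells in these values was not tested, and in such bulk samples fewer cells of a type and less RNA per cell cannot be told apart.

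**Figure D4:**
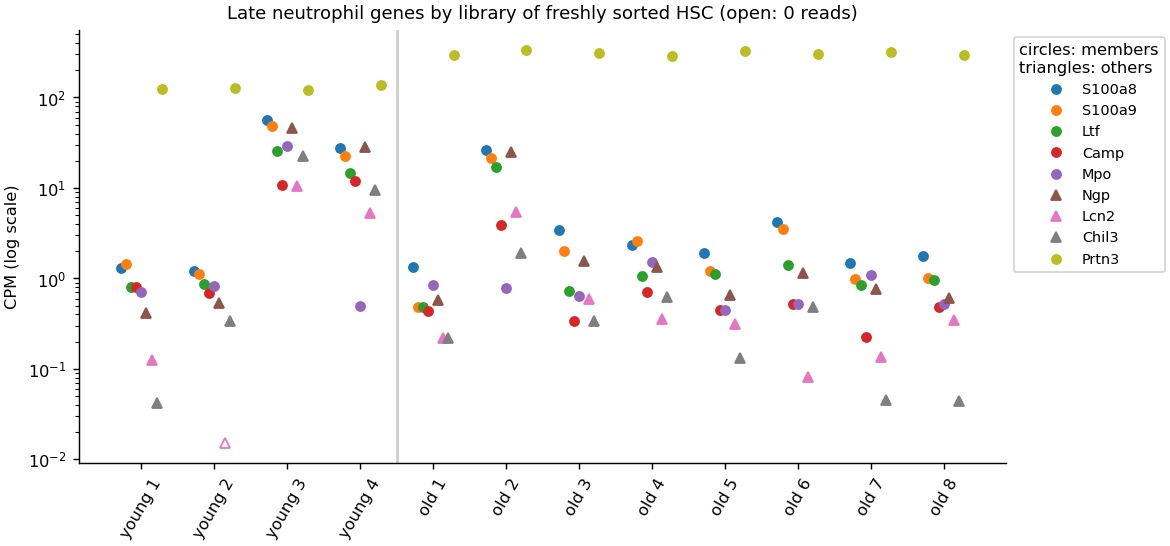
CPM on a log scale (y axis) of late neutrophil genes, Mpo and Prtn3 in each fresh HSC library (x axis, young left of the line, old right). Circles are members, triangles are Ngp, Lcn2 and Chil3, and open symbols have 0 reads. S100a8 reaches 57.1, 27.5 and 26.6 CPM in young 3, young 4 and old 2 and does not exceed 4.18 CPM elsewhere, while Prtn3 follows age.

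Of the 44 tested genes of 4 other granulocyte lists 11 were called with age (25%, beside 7.52% of all genes), 7 higher and 4 lower. Without YHSC 3, YHSC 4 and OHSC 2, 10 of 42 were called (23.8%, beside 5.5%), 9 higher and 1 lower. Of 12 further primary granule and promyelocyte genes 11 were tested and 1 was called lower (Fcnb, log2 -1.57), with a median log2 of 0.32 beside -0.01 over all genes. Of 20 further late neutrophil genes 14 were tested, 2 rose and 2 were called lower (Cybb, log2 -1.24, and Chil3, -4.01). Fcnb, Cybb and Chil3 lost the call without those 3 libraries, with log2 values of -0.37, -0.41 and 0.60, whereas the 8 other calls of these lists were kept. The rises were Slpi, a secreted inhibitor of elastase (0.402 to 3.33 CPM, log2 3.05 ± 0.29, adjusted p = 2.04e-08), and Padi4, a histone deiminase (88 to 134.6 CPM, log2 0.65 ± 0.06, adjusted p = 5.01e-09). Of 12 granulocyte regulators 11 were tested, 3 rose and 1 fell. Csf3r, the G-CSF receptor, rose by 0.90 ± 0.08 on the log2 scale from 107.6 to 195.6 CPM, Cebpb rose by 0.75 ± 0.05 from 35.2 to 57.4 CPM, and Id1 was lower by log2 -1.08 ± 0.22. Of 8 alarmin receptors and other S100 genes, all tested, S100a6 (log2 1.12 ± 0.09) and S100a4 (0.81 ± 0.15) rose.

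Between GMP and CMP the calls fell in the primary granule class, and the difference between classes was not tested. The 5 primary granule genes were all higher in GMP than in CMP, and none of the 4 alarmin and secondary granule genes was called. Mpo had 16431 and 13840 CPM in CMP and 44880 and 44713 CPM in GMP (3.44-fold, log2 1.78 ± 0.38, adjusted p = 0.0462). Elane rose from 1025 and 661.9 CPM to 7170 and 6793 CPM, the greatest fold change of the 5 (9.62-fold, log2 3.27 ± 0.56, adjusted p = 0.0275). Ms4a3 rose from 196.4 and 119.0 CPM to 1007 and 1006 CPM (7.42-fold, log2 2.89 ± 0.31, adjusted p = 0.00819). Prtn3, at 886.8 and 726.8 against 2428 and 2116 CPM, and Ctsg, at 786.6 and 666.5 against 1936 and 1864 CPM, rose 3.28-fold (adjusted p = 0.00674) and 3.04-fold (adjusted p = 2.74e-05). For each of the 5 genes the GMP libraries lay above both CMP libraries, and the share of all genes so separated was not counted. The 5 of 9 members called stand beside 16.7% of all genes (6.24% higher). Of all calls 37.3% were higher, or 19% with scaling by library size alone. Leaving out single libraries moved the count from 2 (Prtn3 and Ctsg, without GMP 1) over 3 (Prtn3, Ctsg and Ms4a3, without CMP 1) to 6. Mpo lost its call in 7 of 13 alternatives, among them scaling by library size alone and the leaving out of 1 library, whereas Prtn3 kept it in all 13.

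S100a8 had 21.7 and 13.8 CPM in CMP and 13.7 and 16.6 CPM in GMP, a log2 difference of -0.01 ± 0.27 (adjusted p = 0.992). S100a9 stood at 13.7 and 9.42 CPM in CMP and 1.13 and 5.27 CPM in GMP (log2 -1.64 ± 0.75, adjusted p = 0.185). Ltf (8.44 and 9.03 against 1.3 and 4.55 CPM, adjusted p = 0.0555) and Camp (6.98 and 3.81 against 0.62 and 1.93 CPM, adjusted p = 0.0521) did not pass, and DESeq2 called both lower in GMP, as did edgeR with library size alone. The GMP libraries lay below both CMP libraries for S100a9, Ltf and Camp, but the share of all genes so separated was not counted. On the RPKM scale the S100a8 level was 9.18 and 2.37 times that of S100a9 in the GMP libraries, and 0.666 to 2.05 times in every other library with reads of both.

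MEP had little of the primary granule genes. Mpo held 27.2 and 11.8 CPM, Elane 7.63 and 1.13, Prtn3 3.21 and 1.67, Ctsg 1.13 and 0.623 and Ms4a3 0.62 and 0.226 CPM. Against CMP these were log2 differences of -9.48, -7.47, -8.25, -9.58 and -8.42, all called. Of the late genes S100a8 had 5.77 and 3.28 CPM in MEP, S100a9 3.94 and 2.43, Ltf 1.46 and 1.36 and Camp 1.35 and 0.453. S100a8 (log2 -1.86 ± 0.30), Ltf (-2.51 ± 0.50) and Camp (-2.46 ± 0.64) were called lower too, which made 8 of 9 members where 46.7% of all genes were called and 29.2% were lower. GMP exceeded MEP in the 5 primary granule genes and S100a8 (3.6-fold), 6 of 9 members against 43.7% of all genes (27.2% higher). S100a9 had like means in GMP and MEP (3.2 and 3.19 CPM, log2 0.10 ± 0.79, adjusted p = 0.929), but the GMP libraries (1.13 and 5.27 CPM) lay on either side of MEP. Its log2 value ran from -1.39 to 0.84 under alternatives. Between MEP and CMP it was not called (adjusted p = 0.111). These comparisons share libraries. Ms4a3 and Prtn3 illustrate how differently the HSC level sits on this scale: Ms4a3 in fresh HSCs (0.162 to 1.15 CPM) overlapped MEP, while Prtn3 in YHSCs was above MEP and below CMP.

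**Figure D5:**
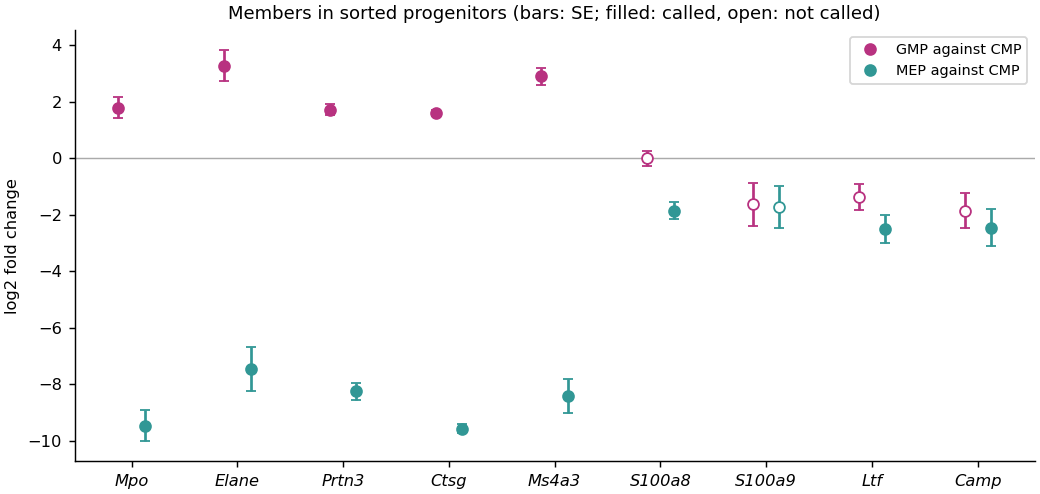
Log2 fold change (y axis) of the 9 members in GMP and in MEP, each against CMP, from edgeR with SE bars. Filled points are called and open points are not. The 5 primary granule genes lie above 0 in GMP (1.60 to 3.27), whereas S100a8, S100a9, Ltf and Camp do not pass there.

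Other granule genes were counted in the same way. Of 11 tested further primary granule genes 10 were higher in GMP than in CMP, among them Prss57, a granule serine protease (log2 2.10 ± 0.26), Hdc, the histamine synthase (1.96 ± 0.12), and Cd63 (1.43 ± 0.12). Of 16 tested further late neutrophil genes 7 were higher and none was lower (median 0.35 beside 0.01 over all genes), led by Pglyrp1 (3.08 ± 0.22) and Cybb (2.64 ± 0.15). Of 12 regulators 8 were higher, including Cebpe, the factor of late granule genes (3.28 ± 0.25), and Gfi1 (1.76 ± 0.13), and Runx1 was lower. Of 7 tested alarmin receptors and other S100 genes 2 were higher in GMP, Tlr4, a receptor of the S100a8 and S100a9 complex (1.69 ± 0.23), and S100a11 (1.35 ± 0.07), and S100a10 was lower (-0.79 ± 0.07).

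In cultured OHSCs Prtn3 was abundant, Ms4a3 (1.47 to 3.39 CPM) and Ltf (0.781 to 2.15 CPM) were low, and the other 6 members were at or near 0. S100a8 and S100a9 had 0 reads in all 6 libraries, where the limit that 0 reads allow (3 counts) is 0.0702 to 0.0804 CPM in each. Ngp and Chil3 were at 0 too, Ctsg had 1 read in all 6 libraries together and Camp 2, and Mpo and Elane did not exceed 6 and 8 reads in a library. Only Prtn3 (6048 to 9886 reads), Ms4a3 (63 to 128 reads) and Ltf (32 to 80 reads) passed the filter. The same 3 genes were the only members to which the histone tables of fresh YHSCs assigned an H3K4me3 peak. That is a match between separate experiments, with no test.

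None of these 3 was called on Btaf1 knockdown, where 0.906% of all genes were (3.42% at an unadjusted p below 0.05), and DESeq2 also called none. Prtn3 had 155.9 and 162.2 CPM in shControl, 185.3 and 185.3 with shRNA1 and 240.0 and 231.7 with shRNA2. Both shRNAs lay above the control, and shRNA2 above shRNA1. The pooled log2 difference was 0.39 ± 0.16 (adjusted p = 0.353). Each shRNA alone gave a small adjusted p, 0.00235 for shRNA1 (log2 0.19 ± 0.04) and 3.36e-10 for shRNA2 (0.56 ± 0.04), with the 1.14-fold and 1.48-fold changes below the threshold of 1.5. Ms4a3 had 1.47 and 1.88 CPM in shControl, 2.8 and 3.39 with shRNA1 and 1.89 and 2.2 with shRNA2, and all shRNA libraries lay above the control. It had an unadjusted p of 0.0379 when pooled (log2 0.60 ± 0.26, adjusted p = 0.284), the only member below 0.05, and was called with shRNA1 alone (log2 0.86 ± 0.26, adjusted p = 0.0381). Elane, too low to be tested, had 0.164 and 0.215 CPM in shControl and at most 0.0244 CPM in the 4 shRNA libraries. Mpo, also untested, went the other way at trace level, with 0 reads in both shControl libraries and 2 to 6 reads in each shRNA library. Ltf overlapped between groups (0.781 to 2.15 CPM, adjusted p = 0.697). Of the other lists, Itgam (Mac1; log2 2.18 ± 0.34, from 0.346 to 1.61 CPM) rose and Nkg7 (-0.81 ± 0.11) and Gfi1 (-0.69 ± 0.11) fell, 1 gene in each of the late neutrophil, primary granule and regulator lists.

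In transplanted HSCs the late genes were present and varied between libraries of the same shRNA. S100a8 had 32.3 and 1.81 CPM in shControl, 135.0 and 49.8 with shRNA1, and 27.8 and 78.8 with shRNA2. S100a9 followed at 22.5 and 1.28, 108.1 and 28.4, and 22.4 and 64 CPM. Ltf had 8.99 and 1.17, 69.6 and 20, and 1.66 and 62.5 CPM, and Camp 15.3 and 0.745, 50.5 and 15.2, and 1.31 and 43.3 CPM. In each gene shRNA1 replicate 1 was the highest library. Both shRNA1 libraries lay above both shControl libraries for S100a8, S100a9 and Ltf, but not for Camp, and shControl overlapped with shRNA2 in all 4 genes. The share of all genes separated in this way was not counted, so no rise is read from it. Mpo ranged from 0.656 to 181.7 CPM, Elane from 0.346 to 43.5 and Ctsg from 0 to 9.3, each highest in shRNA1 replicate 1 and next in shControl replicate 1. Ms4a3 ranged from 0.745 to 7.35 CPM.

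No member was called in the 9 tested, by edgeR or by DESeq2 (which gave no adjusted p for Mpo, Elane and Ctsg), and none had an unadjusted p below 0.05. The pooled log2 differences for S100a8, S100a9 and Ltf were 2.08 ± 1.30, 2.21 ± 1.35 and 2.90 ± 1.78 (adjusted p = 0.93, 0.929 and 0.929). edgeR called 0% of 20350 genes here, with 1138 at an unadjusted p below 0.05. The members' median was 1.37 beside 0.00 over all genes, 2.01 with shRNA1 alone and 0.25 with shRNA2 alone. The shRNAs went opposite ways in Mpo (log2 2.34 ± 2.25 and -3.47 ± 2.73), Elane (1.81 ± 1.93 and -3.87 ± 2.47) and Ctsg (1.82 ± 1.92 and -4.66 ± 2.86), and no member was called with either. The pooled median of the 17 tested further late neutrophil genes was 2.60, with none called. Ngp moved alike, at 29.1 and 1.17 CPM in shControl, 158.9 and 52.3 with shRNA1, and 4.24 and 156.6 with shRNA2, and its part in the members' values was not tested. Some marker lists of other cells also had pooled medians above 0, with none called. These were erythroid 1.23 (sums of 30.6 and 75.7 CPM in shControl and 30.6 to 161.4 CPM with either shRNA), B cell 1.11 (27 and 29.1 against 28.5 to 34.5 CPM) and monocyte and macrophage 0.84 (32.9 and 41.2 against 45.5 to 79.5 CPM). Medians were below 0 for basophil, mast cell and eosinophil (-0.32), T cell (-0.23), megakaryocyte (-0.02) and plasma cell (-0.02) markers. The part of these cells was not tested either. Prtn3 stood at 230.2 and 181.5, 199.7 and 173.4, and 168.7 and 206.7 CPM, with all groups overlapping (log2 -0.14 ± 0.11, adjusted p = 0.945).

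The knockdown change of Prtn3 differed between transplantation and culture by a log2 value of -0.53 ± 0.19 (interaction, unadjusted p = 0.0171 by edgeR), which did not pass adjustment over all genes (adjusted p = 0.429). No other member had an unadjusted p below 0.05 in that comparison, no member was called by edgeR or DESeq2, and 0.168% of all genes were. Between the controls of the 2 settings edgeR also called no member while 24.9% of all genes were called (44.9% of the calls higher in culture, 33.4% with library size alone), although S100a8, S100a9 and Camp had 0 reads in both cultured libraries. DESeq2 called Elane, S100a8, S100a9 and Camp lower in culture and gave no adjusted p for Mpo and Ctsg in either comparison, and S100a8, S100a9 and Camp had an unadjusted p below 0.05 in edgeR. Prtn3 (159.0 against 205.8 CPM, log2 -0.24 ± 0.16, adjusted p = 0.251) was not called by either. Culture and transplantation differed in the sort, host and time, which cannot be told apart here.

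Broad H3K27me3 domains covered the RefSeq starts of 5 members in YHSCs, and the share of all gene starts so covered was not counted. Mpo lay in an 85 kb domain (chr11:87760000-87844999) with signals of 0.767 and 0.821, above 95.4% of H3K27me3 peaks. Ctsg lay in a 128 kb domain shared with granzyme and mast cell protease genes (0.644 and 0.633), S100a8 and S100a9 in a common 82 kb domain (0.527 and 0.551) and Camp in a 23 kb domain (0.52 and 0.516). The median H3K27me3 peak spanned 3999 bases. None of these 5 had an H3K4me3 or H3K27ac peak by gene name, and 3 members (Ctsg, S100a9 and Camp) had no accessible region.

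Ltf and Ms4a3 instead carried small active marks. Ltf was the only member with its RefSeq start inside an accessible region, chr9:111018738-111019480 (adjusted p = 0.27 with age, 5.61 ± 0.878 CPM young and 4.89 ± 0.737 CPM old, SD, n = 4), with H3K4me3 (1.65 and 1.35) and H3K27ac (1.68 and 1.51 young, 1.46 and 1.16 old) over it. These H3K4me3 signals exceeded only 10.9% of peaks. Ltf also had 3 H3K27me3 peaks of 1 kb within the gene. Ms4a3 had its marks inside the gene, at chr19:11635238-11636003, with H3K27ac of 1.55 and 1.11 in YHSCs and 1.8 and 2.57 in OHSCs (limma log2 0.55 ± 0.21, adjusted p = 0.14). Neither H3K27ac peak was called by the study's rule, under which 11.4% of peaks were, nor by limma (3.18%, of which 85.4% were higher, or 55.9% after scaling to the same median), and neither accessible region was called. The Ms4a3 peak passed the rule when H3K27ac library YHSC 1 or OHSC 1 was left out, and limma's threshold without YHSC 1.

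Pearson's r of log2(CPM + 0.5) between members is given as a description, over points that share cell type and depth. Across all 30 RNA-seq libraries Mpo and Elane had r = 0.99, Ctsg 0.98 with both, S100a8 and S100a9 0.97, and Prtn3 0.45 with Elane and 0.01 with S100a9. Against the mean of the 4 other primary granule members, Prtn3 had r = 0.485 and the remaining members 0.904 to 0.963. Over the 18 fresh and transplanted HSC libraries the classes were less distinct, Camp having r = 0.75 with Mpo and 0.79 with Ms4a3, and Prtn3 had r of -0.37 to -0.09 with every other member. Over all 30 libraries the genes most like the mean of the 5 primary granule members were Trem3 (0.983), Ly6c2 (0.974), Atp8b4 (0.970), Ltb4r1 (0.969) and Alas1 (0.968), among 29260 genes. Those most like the mean of S100a8, S100a9, Ltf and Camp were Ngp (0.988), Chil3 (0.962), Cd177 (0.950), Lcn2 (0.877) and Itgb2l (0.862).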

How the data were processed

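RNA counts per gene were deposited as whole numbers: the authors used Trim Galore and cutadapt, the aligner STAR (mm10) and featureCounts over GENCODE M22 genes. The sources used here give no strand or multimapping setting. ATAC-seq counts per consensus region (cutadapt, BWA, MACS2) were deposited by the authors as whole numbers. Histone values are the authors' signal per peak after scaling each library to a fixed read number. The 12 fresh HSC libraries carried ERCC spike-in counts (at most 6.93% of counts), left out here. Another 8 per-sample columns matched no sample here and were not used.

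Genes were filtered (filterByExpr), TMM-normalized and tested with edgeR 4.0.16 (R 4.3.3), 1 fit per experiment, pooling both shRNAs against the control. Regions needed more than 1.5 CPM in 4 libraries. H3K27ac was tested with limma 3.58.1 on log2(signal + 0.5), beside the study's rule (ratio of means above 1.5 and at least 1.2 for each pair of libraries). RPKM used GENCODE M21 exon lengths. DESeq2 1.42.0 was an alternative. The edgeR fits (1 comparison each), limma and DESeq2 with age were tried on simulated data, and the other steps were not. All 9 members are named, other lists give counts and up to 3 called genes without overlap by size, and 5 genes are named by correlation. The members and lists were chosen with earlier results of these data known. All ± values without SD are SE. Promoters are from RefSeq (GRCm38), with all 9 members matched.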

Additional observations from a re-analysis of the deposited data

Results flagged for a closer look

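Within groups of 4 to 8 libraries, 46 groups were examined for a library far from the rest, measured as its gap to the nearest library over the whole range (Dixon's 95% value), and 9 stood out in 4 libraries. Chance flags about 1 in 20 groups. YHSC library 3 stood apart in 3 primary granule genes, with 29.1 CPM of Mpo (0.497 to 0.83 in the other young libraries), 1.8 CPM of Elane (0.124 to 0.342) and 2.35 CPM of Ctsg (0.0418 to 0.195). OHSC library 2 stood apart in the 4 late genes, with 26.6 CPM of S100a8 (1.33 to 4.18 in the other old libraries), 21.2 CPM of S100a9 (0.486 to 3.53), 16.9 CPM of Ltf (0.486 to 1.42) and 3.85 CPM of Camp (0.225 to 0.715). OHSC library 1 held 0.265 CPM of Ctsg against 0.0406 to 0.131 CPM. In ATAC-seq, OHSC library 8 held 4.93 CPM at the Ms4a3 region chr19:11635279-11636088, below 5.84 to 5.9 CPM in the other old libraries.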

How the results depend on the processing

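With age, 2 members were called (Prtn3 and Mpo), 2 also by DESeq2 (Prtn3 and Camp) and without the filter on low counts (Prtn3 and Ctsg), and 1 (Prtn3) with the replicate block, with spike-in scaling, and without YHSC 3, YHSC 4 and OHSC 2, the last 2 settings being chosen after seeing the data. Leaving out single libraries gave 1 to 5. Mpo turned to a log2 value of 0.26 without YHSC 3 and 0.10 without the 3 libraries (0.11 with no filter as well, a setting also chosen after seeing the data, with 1 member called), and ranged from -3.64 to 0.26 over single omissions. In culture 1 member (Ms4a3) was called at an unadjusted p below 0.05 and with shRNA1 alone. Single omissions gave 2 to 6 members for GMP against CMP (main 5), 6 to 8 against MEP (main 6) and 7 to 9 for MEP against CMP (main 8). S100a9 in GMP against MEP ranged from -1.39 (without GMP 2, adjusted p = 0.00935) to 0.84. Between cultured and transplanted controls DESeq2 called 4 and single omissions 0 to 2. At member regions a fold change of 2 left 0 calls and omissions 1 to 2. H3K27ac omissions gave 0 to 1 by either test. Transplant and interaction counts stayed 0 in every alternative run. Of 1218 values of single genes, regions and peaks under an alternative, 1096 kept direction and side of the threshold, 45 that passed in neither fit changed sign, 41 passed newly, 32 no longer passed and 4 reversed. The cause was not tested.

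Same-numbered libraries did not deviate together (correlations of -0.14 to 0.24, under 0.1 for at least 1 pair in each comparison), so the numbers were not taken as pairs. In the age comparison 1 of 8 libraries correlated best with their own number. With the replicate block the progenitor counts were 5, 6 and 8, Mpo being lost and Ltf called lower in GMP against CMP, Prtn3 alone was called with age, and no member in the other comparisons of genes. Over all genes, calls moved by over 1.5 times in these cases: age 1618, 873 at a fold change of 2 and 4434 without one; culture 179, 71 and 665 likewise, 322 unfiltered, 676 unadjusted, 372 and 333 for each shRNA alone; transplant 0 by edgeR and 31 by DESeq2; interaction 36, 154 by DESeq2, 66 unfiltered, 18 at a fold change of 2 and 21 with the block; GMP against CMP 3054, 1905 and 6340; cultured against transplanted 5335, 3307 and 8749; regions 11591 and 4823; and H3K27ac 4500 and 1340, or 8152 without YHSC 1. Single omissions gave 1 to 79 interaction calls, 79 culture calls without shControl 1 and 83 without shControl 2, and 87 to 4809 H3K27ac peaks by limma. Transplant calls over all genes also rose to 455 by edgeR at an unadjusted p below 0.05. With 2 libraries per group, the SE of the transplant knockdown log2 value was 1.30 to 1.78 for S100a8, S100a9, Ltf and Camp, which limits what could be detected.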
